A study of Mus musculus with 11 samples.

Results

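Mitochondria keep a small circular genome of their own, and its messenger RNAs were followed here through paracetamol (acetaminophen, APAP) injury of the mouse liver. The 10 transcripts described were listed by name (mt-Nd1 to mt-Nd5, mt-Cytb, mt-Co1 to mt-Co3 and mt-Atp6). They are 10 of the 13 mitochondrially encoded messenger RNAs among 31053 genes in the files. The list was set by gene name and not by a threshold on a value, although earlier results of these data were known when it was made. All spots that the authors' mask placed under tissue were used, 25323 in all, without a limit on mitochondrial content.

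Spatial gene expression was measured with Visium, which captures polyadenylated RNA from a tissue section on barcoded spots laid out as a grid, and a spot is wide enough to hold several cells. The 11 liver sections comprised 3 uninjured sections at 0 h (numbered 2, 3 and 4) and 8 sections taken after APAP. Of these, 2 (A, B) came from 24 h, another 2 (A, B) from 36 h, and 4 (A, B, C, D) from 48 h. The injured groups carry the label POD, and their labels differ only in time and section letter. No label names a slide or a run, so differences of either kind cannot be told apart from time or injury. The study's methods describe young adult male mice, with C57BL/6JCrl as the wild-type strain, that were fasted and then injected with APAP into the peritoneum. They do not say whether the uninjured mice were fasted. For this assay they name 1 mouse for each time, and the labels tie no section to an animal. If sections of a time share a mouse, a p-value measures only the spread between its sections, and mouse and time cannot be told apart.

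Every cell's mitochondrial genome is transcribed from both strands by a dedicated polymerase, POLRMT, with the packaging and activating factor TFAM. The long precursors are cut at the transfer RNAs between the genes, and most of the resulting messenger RNAs then receive a short poly(A) tail, which lets oligo-dT capture them. All encode subunits of the respiratory chain and ATP synthase, which are built together with many nuclear-encoded subunits. Hepatocytes are rich in mitochondria, and APAP overdose is known to injure the mitochondria of the hepatocytes around the central vein.

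The transcripts lie end to end, so their borders limit what a count means. In GRCm38 (GENCODE M21) the complex I genes of the set are mt-Nd1 (chrM:2751-3707), mt-Nd2 (chrM:3914-4951), mt-Nd3 (chrM:9459-9806), mt-Nd4 (chrM:10167-11544) and mt-Nd5 (chrM:11742-13565). The others are mt-Co1 (chrM:5328-6872), mt-Co2 (chrM:7013-7696), mt-Atp6 (chrM:7927-8607), mt-Co3 (chrM:8607-9390) and mt-Cytb (chrM:14145-15288). All 10 are intronless coding genes on the plus strand. The annotated ends of mt-Atp6 and mt-Co3 overlap, mt-Atp6 overlaps mt-Atp8, and mt-Nd4 overlaps mt-Nd4l. mt-Nd5 overlaps the end of mt-Nd6, which is on the other strand. How reads in these overlaps were counted is not given in the sources used here. The last 30 bases of 6 annotated transcripts are shown, 5′ to 3′, because capture starts at the 3′ end of a transcript. Where a mature transcript runs on past its annotated end, capture starts beyond the bases shown. Capitals mark the annotated stop codon, or the lone T left of it where the codon is completed by the poly(A) tail:
mt-Co1: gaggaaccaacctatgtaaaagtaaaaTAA
mt-Atp6: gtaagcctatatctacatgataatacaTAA
mt-Nd5: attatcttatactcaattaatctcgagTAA
mt-Co3: tatacgtctccatttattgatgaggatctT
mt-Nd4: gtccaaaactaattacaggcctgacaataT
mt-Cytb: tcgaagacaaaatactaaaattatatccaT

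Sections held 1491 to 3478 spots and 31292700 to 67305700 UMIs (unique transcript molecules counted) under tissue. The median spot held 19259 to 29789 UMIs at 0 h and 15156 to 27980 after injury. As a check of the tissue, 7 hepatocyte marker genes took 9.65 to 9.86% of all UMIs at 0 h and 9.69 to 12.0% after injury. That sum hides opposite changes, so it does not measure hepatocyte content across times. From 0 h to 24 h mean CPM rose from 2784 to 18115 for Hp. It fell from 23973 to 10808 for Ttr and from 2426 to 345 for Cyp2e1. No listed marker of any cell type was at 0 in any section. A spot mixes cells, so fewer cells of a type and less RNA per cell cannot be told apart.

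Together the 10 transcripts made up a smaller part of the captured RNA after injury. Their share of UMIs was 5.82%, 6.04% and 4.18% in 0 h sections 2, 3 and 4. Sections A and B held 1.94% and 2.36% at 24 h, and 1.79% and 4.53% at 36 h. In the 48 h group the 4 sections held 3.01%, 2.71%, 3.06% and 2.35%. Only 36 h B reached the 0 h range, and 36 h A was the lowest of all sections. The group means were 5.35% ± 1.01 (SD, n = 3), 2.15% ± 0.297 (n = 2), 3.16% ± 1.93 (n = 2) and 2.78% ± 0.328 (n = 4). In raw UMIs per spot the separation was less clean. The median spot held 1653, 1405 and 676 member UMIs at 0 h and 243 to 706 after injury, so 48 h B lay above 0 h section 4.

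Each transcript was compared between times on the section sums with edgeR's quasi-likelihood test over 14823 genes, and CPM is the gene's UMIs scaled to a common library size after TMM adjustment. All 10 fell at 24 h, 8 of 10 at 36 h and all 10 at 48 h against 0 h, at an adjusted p under 0.05. Of all genes tested, 41.7%, 29.3% and 44.2% were called in those comparisons in either direction. The members' median log2 fold changes were -1.61, -1.18 and -1.60, beside 0.05, 0.05 and 0.01 over all genes. Over the 128 genes of at least 1000 CPM the medians were lower, at -0.39, -0.47 and -0.47. Every member except mt-Nd5 was above that level at 0 h. In CPM all 8 injured sections lay below all 3 sections at 0 h for 9 of 10 members, a pattern that 14.3% of genes showed. That separation depends on the TMM adjustment, as do the statements on overlap for single members below. As a plain percent of UMIs only mt-Nd2 and mt-Nd4 kept it. For the other members 36 h B held more than 0 h section 4, as in mt-Atp6 (0.873% against 0.822%) and mt-Co1 (0.799% against 0.648%).

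**Figure D1:**
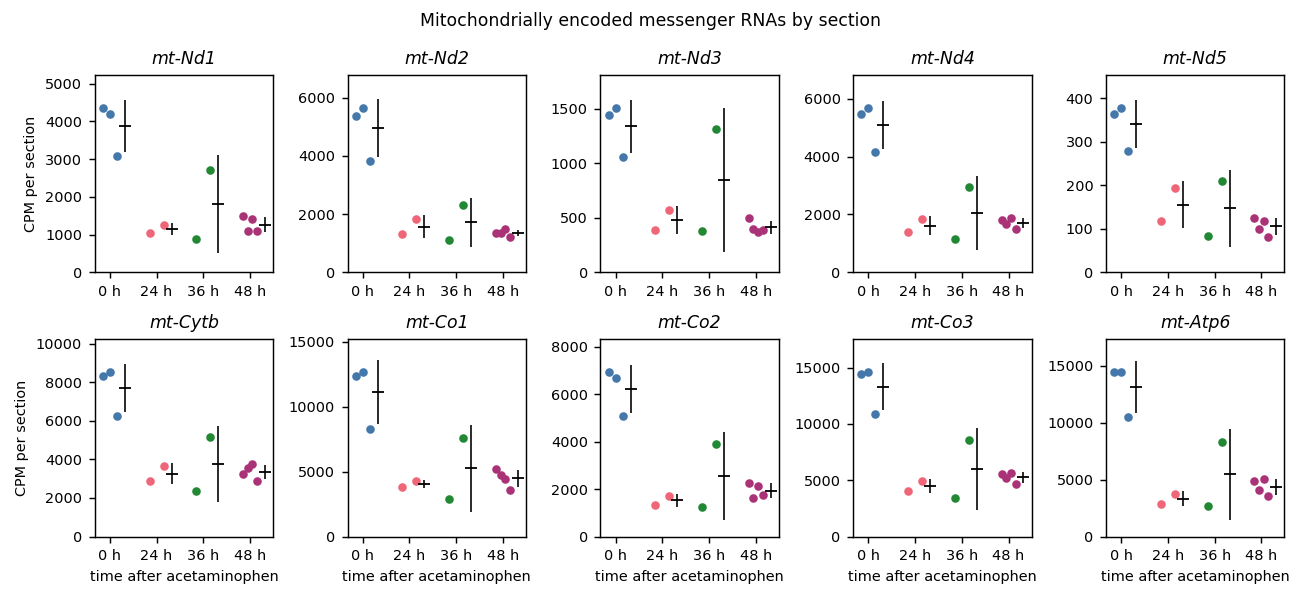
CPM (vertical axis, from 0) of each of the 10 transcripts in each section (points) at the 4 times, with the group mean and SD in black. The 3 sections at 0 h sit above all 8 injured sections for every transcript except mt-Nd3, and 36 h B is the highest injured section in each panel.

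Among complex I subunits, which form the first proton pump of the chain, mt-Nd2 fell the most at 48 h. mt-Nd2 CPM was 5390, 5665 and 3812 at 0 h, 1301 and 1844 at 24 h, 1120 and 2309 at 36 h, and 1342, 1340, 1482 and 1219 at 48 h. No injured section overlapped the 0 h sections, and the 4 at 48 h were close together. For mt-Nd2 the log2 fold change by edgeR was -1.66 at 24 h (SE 0.297, adjusted p 0.0015), then -1.53 (SE 0.295, adjusted p 0.00458), and finally -1.88 (SE 0.234, adjusted p 0.000176).

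mt-Nd3, the shortest of the 10, behaved least evenly. Its CPM was 1442, 1512 and 1060 at 0 h, 392 and 571 at 24 h, 381 and 1314 at 36 h, and 500, 400, 366 and 389 at 48 h. Section 36 h B lay inside the 0 h range and 36 h A among the lowest. The log2 fold change of mt-Nd3 at 36 h was -0.66 (95% interval -1.58 to 0.26, adjusted p 0.251, edgeR), against -1.69 (-2.45 to -0.94, adjusted p 0.00286) at 48 h.

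mt-Nd1 was the other member not called at 36 h, with a log2 fold change of -1.11 (SE 0.385, adjusted p 0.0534, edgeR). Its CPM spanned 3094 to 4368 before injury, was 885 and 2719 in the 36 h sections, and spanned 1084 to 1483 at 48 h. mt-Nd4 fell at each time, by 1.66, 1.31 and 1.57 on the log2 scale. mt-Nd5, a proton-pumping subunit and the least abundant member, held 365, 378 and 279 CPM at 0 h, 117 and 194 at 24 h, 83.9 and 210 at 36 h, and 125, 99, 117 and 81.3 at 48 h. No injured section reached the 0 h sections, and its log2 fold change by edgeR was -1.13 at 24 h (SE 0.366, adjusted p 0.0305) and -1.69 at 48 h (SE 0.295, adjusted p 0.00129).

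mt-Cytb encodes cytochrome b, the only complex III subunit made in the mitochondrion. It showed the smallest fall at 48 h. mt-Cytb CPM was 8313, 8551 and 6257 at 0 h, 2888 and 3646 at 24 h, 2367 and 5141 at 36 h, and 3266, 3537, 3746 and 2868 at 48 h. All injured sections stayed below those at 0 h, with 36 h B nearest. Its log2 fold change was -1.24 (SE 0.289, adjusted p 0.00625, edgeR), -1.04 (SE 0.286, adjusted p 0.0219) and -1.20 (SE 0.231, adjusted p 0.00202) at 24, 36 and 48 h.

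The catalytic core of complex IV, cytochrome c oxidase, is encoded by mt-Co1, mt-Co2 and mt-Co3. mt-Co1 CPM was 12378, 12682 and 8273 at 0 h, 3817 and 4265 at 24 h, 2896 and 7604 at 36 h, and 5186, 4744, 4392 and 3599 at 48 h. No injured section reached the lowest at 0 h, and the pair at 36 h held both the lowest and the highest injured value. For mt-Co1 the log2 fold change by edgeR was -1.46 at 24 h (SE 0.356, adjusted p 0.00823), then -1.08 (SE 0.351, adjusted p 0.0416), and finally -1.31 (SE 0.282, adjusted p 0.00404). mt-Co2 fell the most of all members at 24 h, by 2.03 on the log2 scale (95% interval -2.92 to -1.14). Its CPM went from between 5080 and 6952 before injury to 1336 and 1717. mt-Co3 fell by 1.57, 1.14 and 1.34 on the log2 scale at the 3 times.

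mt-Atp6 encodes the ATP synthase subunit that forms the proton path next to the rotor. mt-Atp6 CPM was 14423, 14490 and 10498 at 0 h, 2835 and 3766 at 24 h, 2655 and 8310 at 36 h, and 4870, 4064, 5043 and 3558 at 48 h. No injured section reached those at 0 h. By edgeR the log2 fold change was -1.99 at 24 h (SE 0.409, adjusted p 0.00346), then -1.26 (SE 0.396, adjusted p 0.0374), and finally -1.58 (SE 0.317, adjusted p 0.00278).

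The injured times could not be separated from each other. Between 36 h and 24 h, 48 h and 24 h, and 48 h and 36 h, edgeR called 0 of 10 members, while 15.7%, 34.1% and 3.10% of all genes were called. At an unadjusted p under 0.05 the counts were 0, 0 and 1, and DESeq2 also called 0 in each. Without 36 h A, 7 members differed from 24 h at 36 h, and 3 differed at 48 h from 36 h, while 48 h against 24 h stayed at 0 whichever section was left out. Where leaving out a section leaves a time with 1, that lone section is assumed to vary like those of the other groups. Counts with a section left out have no share over all genes beside them. The same pair carried the 36 h comparison with 0 h, where 3 members were called without 36 h A and 10 without 36 h B. That count fell to 2 without 0 h section 2 or without 0 h section 3. At 24 h it fell to 5 without 24 h A.

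**Figure D2:**
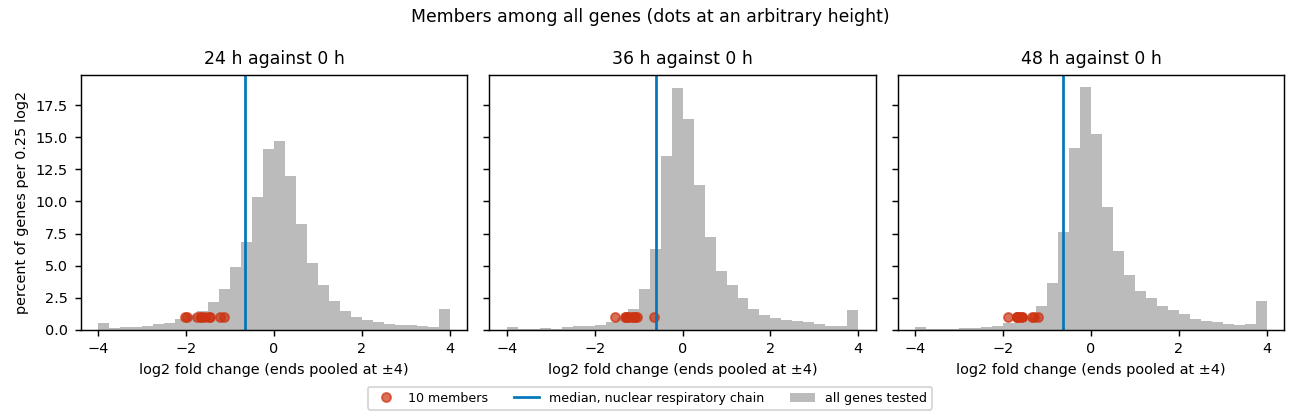
Log2 fold changes against 0 h (horizontal axis) of all 14823 genes as a percent of genes per bin (grey bars), of the 10 members (red dots, height without meaning) and the median of 76 nuclear-encoded respiratory chain genes (blue line). The members lie left of the median of all genes at all 3 times, with 1 dot, mt-Nd3 at 36 h, close to the blue line.

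Scaling moved the size of these changes. With plain totals in place of TMM the median of all genes shifted to 0.37, 0.49 and 0.54 at 24, 36 and 48 h, and the members' medians became -1.29, -0.76 and -1.07. TMM split the calls at 48 h into 3459 upward and 3099 downward, plain totals into 8932 and 598. The splits were 3431 to 2756 and 6102 to 1489 for 24 h, and 2501 to 1846 and 7074 to 440 for 36 h. The members called were then 9, 2 and 10, all lower. For all other named genes and lists, the fold changes and calls below are given under TMM only, so small falls among them depend on that choice.

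The members' share varied with the depth of a spot at 0 h, and less so after injury. Across the spots of a section, Spearman's rho between the members' share and the spot's UMIs was -0.85, -0.78 and -0.84 at 0 h, while injured sections ran from -0.28 to 0.13. Both measures contain the same UMIs, so these are descriptions. At 0 h the member UMIs of a spot hardly rose with its nuclear-encoded UMIs. The slope of log member UMIs on log nuclear-encoded UMIs was -0.0045, 0.134 and 0.0963 at 0 h, where a slope of 1 would mean a fixed share. After injury the slope was 1.05 and 1.07 at 24 h, 0.892 and 0.414 at 36 h, and 0.702, 1.03, 0.274 and 0.917 at 48 h. Sections 36 h B and 48 h C were the nearest to those at 0 h.

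**Figure D3:**
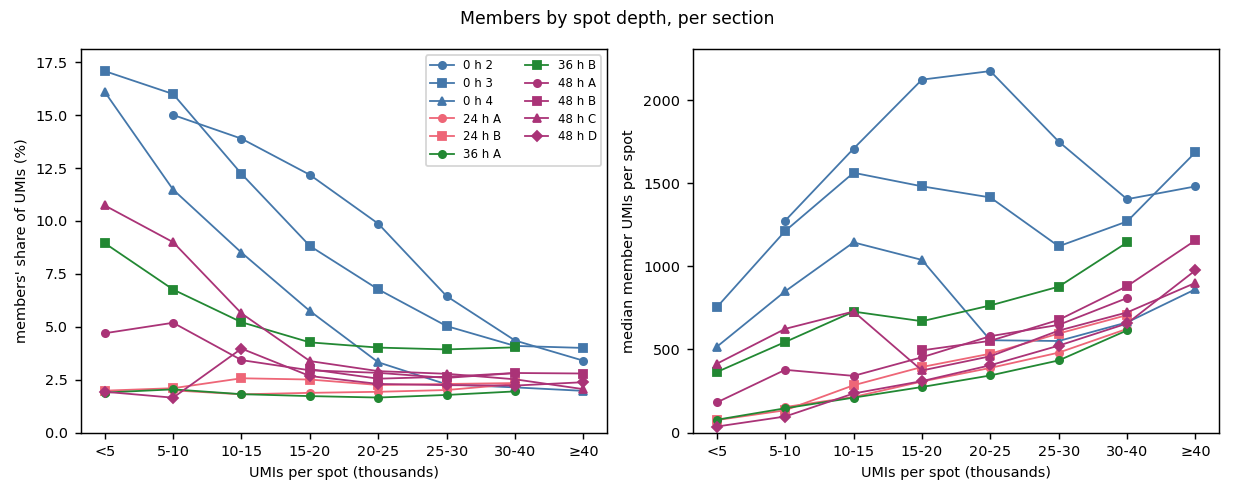
The members' share of UMIs (left, percent) and the median member UMIs per spot (right) by UMIs per spot, 1 line per section and at least 20 spots per point. The lines at 0 h fall steeply with depth, from as much as 17.1% to as little as 1.97%. At high depth section 4 lies among the injured lines, and sections 2 and 3 stay above them, at 4.35% and 4.09% against at most 4.03% between 30000 and 40000 UMIs.

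At low depth the difference between uninjured and injured tissue was therefore wide, and at high depth it was narrow. Between 10000 and 15000 UMIs the share was 13.9%, 12.2% and 8.50% at 0 h, and 1.81 to 5.63% after injury. Between 30000 and 40000 UMIs it was 4.35%, 4.09% and 2.13% at 0 h. There it was 2.29% and 2.34% at 24 h, 1.94% and 4.03% at 36 h, and 2.81%, 2.81%, 2.52% and 2.22% at 48 h, so that 0 h section 4 lay among the injured sections. In fits restricted to spots with 15000 to 25000 UMIs, 10, 9 and 10 members were called lower at 24, 36 and 48 h, with median log2 fold changes of -2.16, -1.87 and -2.23. The share of all genes called in those fits is not set beside these counts. Both ranges were chosen after seeing the data. In fits restricted to 30000 to 40000 UMIs, 2, 0 and 9 were called lower, with medians of -0.76, -0.58 and -0.96. Calls over all genes dropped too, to 3796, 1639 and 5222 of 13166, and the 36 h sections kept only 65 and 36 spots. The calls at 24 h and 36 h ended there except for mt-Atp6 and mt-Co3 at 24 h, and mt-Co1 was the member not called at 48 h. The part of depth in the change over time was not tested beyond these restrictions, and a UMI total can itself differ with the state of the tissue.

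Spots with a very high mitochondrial content were a feature of the uninjured sections. More than 20% of UMIs came from the 13 mitochondrial messenger RNAs in 12, 38 and 87 spots of 0 h sections 2, 3 and 4, 137 of 7113 spots or 1.93%. After injury this held for 0 of 18210 spots. Counting error alone would allow a share of up to 0.0165% if spots were independent, which spots of a section are not. These spots were shallow, with a median of 11849.5, 6601 and 2269 UMIs in the 3 sections. The 95th percentile of the members' share over spots was 16.3 to 18.5% at 0 h and 2.72 to 10.2% after injury. Removing spots with under 800 genes or above 20% mitochondrial UMIs, as the study did, changed the median log2 fold changes to -1.59, -1.16 and -1.58.

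RNA outside the tissue mask was richer in the members than RNA under it in all 11 sections. The share off tissue was 14.003%, 9.42% and 8.13% at 0 h, 11.1% and 10.5% at 24 h, 12.8% and 9.88% at 36 h, and 3.69%, 7.80%, 5.25% and 4.70% at 48 h. Section 48 h A, the lowest, also had the deepest spots off tissue, with a median of 10293 UMIs. Spots at the edge of the mask had a higher share than those inside it in all 11 sections, 5.67 to 6.67% against 4.06 to 5.997% at 0 h and 2.38 to 6.33% against 1.70 to 4.40% after injury. Away from the edge rho between share and depth at 0 h was -0.79 to -0.85. What RNA off tissue adds to spots under tissue was not tested.

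The members differed in level over a wide range. Per kilobase of transcript, mt-Atp6 and mt-Co3 were the highest at 0 h, at 19290 ± 3356 and 16986 ± 2687 CPM per kilobase (SD, n = 3). mt-Co2 followed at 9115 ± 1477, mt-Co1 at 7192 ± 1594 and mt-Cytb at 6737 ± 1103. mt-Nd2 stood at 4774 ± 964, mt-Nd1 at 4062 ± 723, mt-Nd3 at 3845 ± 699 and mt-Nd4 at 3702 ± 606. mt-Nd5 was far below them at 187 ± 29.7. In this order the sections at 0 h overlapped between neighbours except from mt-Co3 to mt-Co2, from mt-Cytb to mt-Nd2 and from mt-Nd4 to mt-Nd5, and each of these 3 steps held in 11 of 11 sections. The assay reads transcript ends, so a value per kilobase is a conversion and not a direct measure of molecules. A transcript that runs on past its annotated end could be undercounted, mt-Nd5 included, which was not tested.

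**Figure D4:**
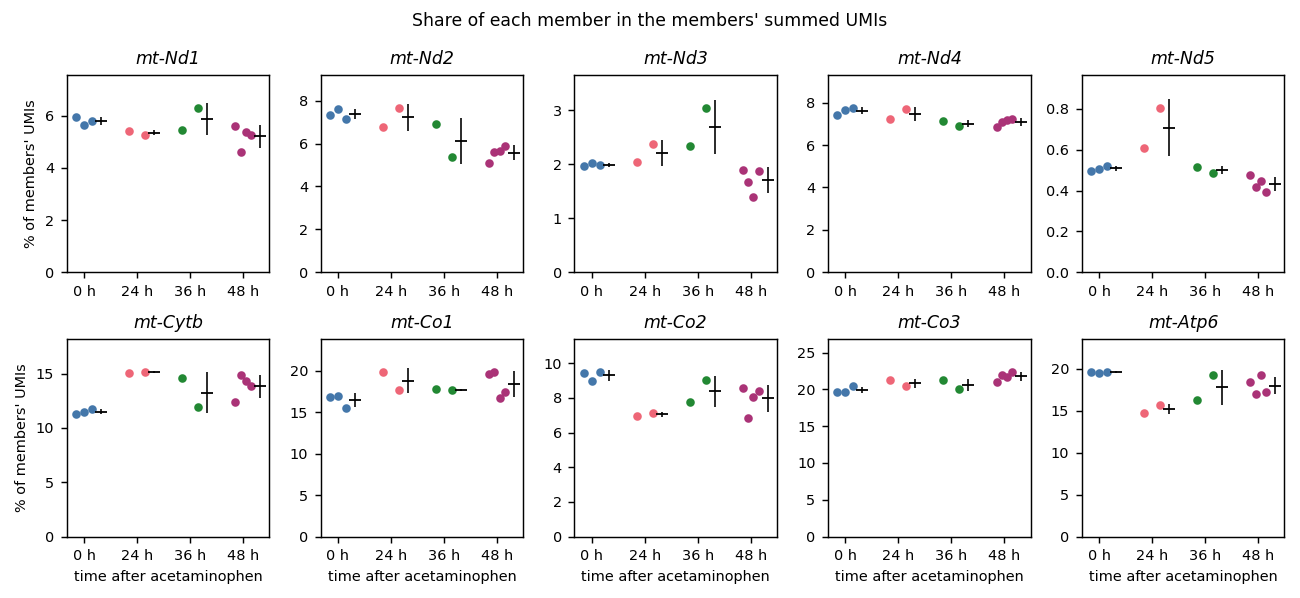
Percent of the members' summed UMIs (vertical axis, from 0) contributed by each of the 10 transcripts in each section (points), with the group mean and SD in black. mt-Cytb is higher and mt-Atp6 lower in every injured section than in the 3 sections at 0 h.

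Within the members' own UMIs the mix was steadier than the total, but it shifted. mt-Cytb contributed 11.3%, 11.5% and 11.7% at 0 h and 11.9 to 15.2% after injury, above 0 h in 8 of 8 sections. mt-Atp6 contributed 19.5 to 19.7% at 0 h and 14.8 to 19.3% after injury, below it in 8 of 8. mt-Nd4 moved by less, from 7.43 to 7.77% at 0 h to 6.85 to 7.69% after injury, but was below its 0 h range in every injured section except 24 h B. mt-Nd2 contributed 7.14 to 7.61% at 0 h and 5.09 to 5.90% at 48 h. In mt-Nd3 the range after injury, 1.39 to 3.05%, spanned that at 0 h, 1.96 to 2.03%, with 36 h B the highest. mt-Nd5 rose above its 0 h range of 0.496 to 0.522% in both 24 h sections, at 0.610 and 0.807%, and was below it in all 4 at 48 h. These shares are descriptions and were not tested.

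Of the 3 transcripts outside the set, mt-Atp8, which shares a messenger RNA with mt-Atp6, was counted at 82 to 136 CPM at 0 h and 5.31 to 38.1 CPM after injury. Its log2 fold change was -2.86, -2.23 and -3.53 at the 3 times, called at each. mt-Nd4l, on a messenger RNA shared with mt-Nd4, fell by 1.17, 1.51 and 2.20 on the log2 scale, also called at each. mt-Nd6, the only one encoded on the minus strand, was at 0.594 to 1.39 CPM and was not called.

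Zonation was read from the expression of nuclear genes. A hepatocyte lobule is zoned from the portal tract to the central vein, and spots were ranked by central minus portal module score after thinning each spot to 2000 nuclear-encoded UMIs. The ranked spots of a section were split into 3 classes of equal number, central, middle and portal, after setting aside hepatocyte-low spots, those with a hepatocyte score under the 1st percentile of 0 h spots. The ranking meant less after injury. The correlation of central with portal scores over spots was -0.64 to -0.65 at 0 h. It ran from -0.38 to 0.34 after injury, with all 4 sections of 48 h above 0.

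At 0 h the middle class had the highest members' share. Central, middle and portal classes held 5.16%, 7.02% and 5.53% in section 2, 5.32%, 7.11% and 5.96% in section 3, and 3.66%, 5.08% and 3.81% in section 4. The ratio of the middle class to the mean of the outer classes was 1.26 to 1.36 at 0 h and 0.968 to 1.14 after injury. Its spots were also shallower, at a median of 22262.5, 16254 and 15930.5 UMIs against 33375, 28778 and 20939.5 in the central class. The part of depth in this difference was not tested.

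**Figure D5:**
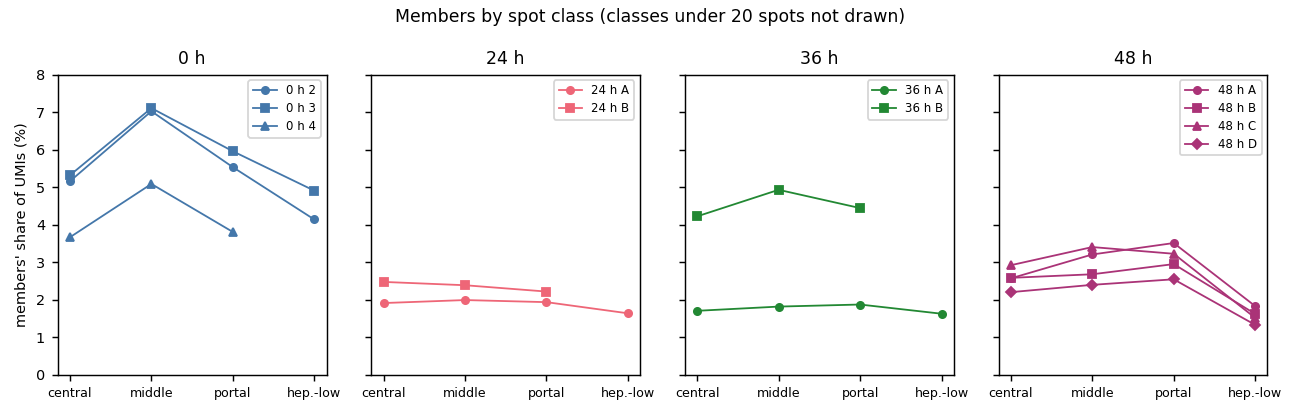
The members' share of UMIs (percent, from 0) in the central, middle and portal classes and in hepatocyte-low spots, 1 line per section and 1 panel per time. The 0 h lines peak in the middle class, and all 4 lines at 48 h are lowest in hepatocyte-low spots.

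Central against portal classes of the same sections were then tested with the section as a block. At 0 h 6 of 10 members were called lower in the central class, beside 17.2% of 13798 genes, with a median log2 difference of -0.16. Without section 2 or without section 3 only 1 member was called, 3 were without 48 h B, and 0 were with narrower outer classes or with unthinned scores. With plain totals 2 were called and the median was -0.11. At 24 h 3 were called (25.6% of genes), mt-Co1 and mt-Cytb lower and mt-Nd5 higher, and at 36 h 9 were called lower (18.3%), with medians of -0.13 and -0.29. With plain totals the median became 0.10 at 24 h and -0.09 at 36 h, and 1 member was called at each, so no direction is given for 24 h. With narrower outer classes 1 was called at 24 h and 3 at 36 h. Without 36 h A the count at 36 h was 2. It was 1 at 24 h without 24 h A or without 24 h B, and 6 without 48 h A.

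At 48 h all 10 members were lower in the central class, beside 48.5% of genes called. mt-Co1 CPM in the central and portal classes was 4031 and 7122 in 48 h A, 4146 and 5873 in B, 4030 and 5359 in C, and 3217 and 4348 in D. The central class was lower in 4 of 4 sections, the most in A. Markers of other cells moved with this difference. Mesenchymal markers took 0.0919 to 0.183% of UMIs in the central class and 0.0407 to 0.0923% in the portal class. Mononuclear phagocyte markers took 0.1004 to 0.175% and 0.0415 to 0.0806%, and hepatocyte markers 9.56 to 10.97% and 11.1 to 13.1%. Their part in the members' difference was not tested. The log2 difference of mt-Co1 was -0.54 (SE 0.050, adjusted p 6.13e-08, edgeR), and over the members it ran from -0.58 for mt-Cytb to -0.38 for mt-Nd5. With plain totals the median was -0.23 and 9 were called.

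The difference between classes was itself compared with that at 0 h. At 48 h it was more negative than at 0 h for all 10 members, beside 33.1% of genes called, with a median change of -0.32. mt-Co3 changed the most, by -0.44 (SE 0.0628, adjusted p 3.47e-06, edgeR). With plain totals 3 were called and the median change was -0.11, with mt-Nd1 at 0.02. At 36 h 0 of 10 were called (15.8% of genes), 3 at an unadjusted p under 0.05 and 6 with unthinned scores. Without 48 h A 3 were called, and 1 was without 24 h A, without 24 h B or without 48 h D. At 24 h 1 was called (18.2%), mt-Nd5, which was higher in the central class. Its CPM there was 119 against 105 in 24 h A and 215 against 157 in B, a log2 difference of 0.32 (SE 0.078, adjusted p 0.00563, edgeR). Without 24 h B no member was called in that change. Outside the set, mt-Atp8, mt-Nd4l and mt-Nd6, all of low count, were also higher in the central class in both 24 h sections. Their log2 differences were 0.31 and 0.73, 0.25 and 0.30, and 0.63 and 1.81.

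Hepatocyte-low spots were set apart by nuclear marker genes and not by the members. Those markers, Hp among them, changed with injury while the cut stayed at its 0 h value, so numbers of spots are not comparable between times. They numbered 127, 31, 190 and 69 in the 48 h sections, 36 and 11 in those of 24 h, and 23 and 4 in those of 36 h. At 48 h the members' share in them was 1.83%, 1.62%, 1.52% and 1.33%, against 3.07%, 2.73%, 3.18% and 2.38% in the other spots of A to D. It was lower in 4 of 4 sections, and the classes did not overlap. Median depth was higher in hepatocyte-low spots in A (21331 against 17365 UMIs) and lower in B (25601 against 28053), C (22485.5 against 23404) and D (24297 against 25230).

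Tested with the section as a block, all 10 members were lower in hepatocyte-low spots at 48 h, beside 51.7% of 15314 genes called. mt-Co1 CPM was 2784, 2456, 2101 and 1917 in hepatocyte-low spots of A to D and 6986, 6194, 6088 and 4692 in the others. The log2 difference was -1.37 for mt-Co1 and ran from -1.44 for mt-Cytb to -1.15 for mt-Co2. The median was -1.22, and -0.80 with plain totals, with 10 called under each. This fit took its spread from all genes together, so its p-values are not printed. At 24 h and 36 h only section A of each had at least 20 such spots, 36 and 23. There 8 and 9 members were called lower, beside 7.16% and 8.20% of genes, and 2 and 0 with plain totals, with no replicate of either.

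Markers of other cell types took a larger share of UMIs in those spots. Of UMIs in hepatocyte-low spots at 48 h, mesenchymal markers took 0.271 to 0.616% against 0.068 to 0.147% elsewhere, and mononuclear phagocyte markers 0.291 to 0.664% against 0.0728 to 0.135%. Hepatocyte markers, which chose the spots, took 4.76 to 6.70% against 10.3 to 11.9%. The part of these cells in the members' levels was not tested. Spots touching a hepatocyte-low spot held 0.831 to 0.926 times the share of spots at least 3 steps away at 48 h, 0.879 to 1.36 times at 24 h and 36 h, and 0.626 to 0.747 times at 0 h. The 1.36 came from 36 h B, with only 4 hepatocyte-low spots, and the 0.626 from 0 h section 4, with 18. At 0 h hepatocyte-low spots numbered 18 to 39. Their share was 4.14% against 5.84% in section 2 and 4.91% against 6.05% in section 3.

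Under TMM the nuclear-encoded partners of the members fell too, by less. Of 76 listed respiratory chain genes, 69, 65 and 75 were called lower at 24, 36 and 48 h and 0 higher, with medians of -0.66, -0.61 and -0.64. Of all genes tested, 18.6%, 12.5% and 20.9% were called lower. The medians over genes of at least 1000 CPM were -0.39, -0.47 and -0.47. Plain totals raised the fold changes of all genes, and the partners' values under them are not given. Complex I contributed 30, 28 and 35 of 36 genes, complex II 4, 4 and 4 of 4, complex III with cytochrome c 9, 9 and 10 of 10, complex IV 11, 11 and 11 of 11, and complex V 15, 13 and 15 of 15. Ndufb5, a complex I subunit, fell by 1.09 at 24 h on the log2 scale. Sdhc, a membrane anchor of succinate dehydrogenase, fell by 1.22, and Uqcrfs1, the iron-sulfur subunit of complex III, by 1.07. Atp5c1, the central stalk of ATP synthase, fell by 1.13 at 24 h, and Cox7a2 of complex IV by 0.77 at 48 h. The difference between members and partners was not tested.

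Genes that make and keep mitochondrial RNA are set here beside calls over all genes of 41.7%, 29.3% and 44.2% at 24 h, 36 h and 48 h. Of 26 listed genes 5 rose and 8 fell at 24 h, 0 rose and 7 fell at 36 h, and 0 rose and 14 fell at 48 h, with medians of 0.01, -0.29 and -0.33. Polrmt, the RNA polymerase, was at 14.9 to 16.0 CPM at 0 h and 16.5 to 17.1 at 24 h, a log2 fold change of 0.12 (SE 0.118, adjusted p 0.427, edgeR). At 48 h Polrmt was at 10.7 to 14.1 CPM and had fallen by 0.28 (adjusted p 0.038, edgeR). Tfam was at 37.5 to 42.2 CPM at 0 h and fell by 0.32, 0.44 and 0.33 at the 3 times (adjusted p 0.0497, 0.0205 and 0.0196, edgeR). The falls of Polrmt and Tfam are about as large as the shift that plain totals gave all genes, or smaller. They therefore depend on the TMM scaling, and no direction is given for them under plain totals. Lrpprc, which stabilises mitochondrial messenger RNAs, fell by 0.79 at 48 h, Grsf1, an RNA-granule protein, by 0.73, and Tfb2m, an initiation factor, by 0.56. At 24 h Grsf1 fell by 0.90 while Tbrg4, of the FASTK family, rose with a log2 fold change of 0.64.

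Genes upstream and around them gave a mixed picture. Ppargc1a, a coactivator of mitochondrial biogenesis, was at 3.48 to 4.57 CPM at 0 h, 1.46 and 1.88 at 24 h, 2.98 and 10.2 at 36 h and 1.91 to 3.55 at 48 h. It was not called against 0 h (adjusted p 0.0554, 0.211 and 0.149, edgeR). Of the 6 listed regulators 1 was higher at 24 h, Pprc1 with a log2 fold change of 1.61, and 1 at 36 h, Esrra with 0.52. Lower were 2, 1 and 2, Gabpa among them at each time. Of 5 genes of mitochondrial DNA replication 1, 0 and 2 were lower. Of 9 membrane and matrix proteins 2, 5 and 7 were lower, with citrate synthase, Cs, falling by 0.49, 0.77 and 0.58.

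Cell type markers moved with time beside the members. Neutrophil markers were higher in 3 of 3 genes at each time, mesenchymal markers in 3, 6 and 6 of 7, with 1 lower at 24 h and 1 at 36 h, and mononuclear phagocyte markers in 1, 1 and 3 of 4. Summed mesenchymal markers made up 0.0202 to 0.0224% of UMIs before injury and 0.0194 to 0.171% after it. Mononuclear phagocyte markers took 0.0324 to 0.0341% and 0.0495 to 0.155%, and neutrophil markers at most 0.000623% and 0.0129%. The nuclear-retained RNAs Malat1 and Neat1 took 0.0143 to 0.017% at 0 h and 0.019 to 0.0753% after injury. Of the other lists, endothelial markers had 1 of 7 genes lower at each time, cholangiocyte markers 1 of 4 higher at each time (Krt8) and 1 lower at 24 h and 36 h (Cdh1), and erythrocyte markers 0 of 4 called. The central module that served for zonation had 19, 17 and 18 of 23 genes lower and 0, 0 and 1 higher, and the portal module 7, 6 and 7 of 12 lower and 2, 1 and 0 higher. The sum of hepatocyte markers was not below its 0 h range in any injured section, with 4, 2 and 4 of 7 genes lower and 2, 1 and 2 higher. The part of these shifts in the members' levels was not tested.

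The genes most like the members over the 11 sections were found by the root mean square difference of centred log2 CPM from the members' mean, among 7080 genes of at least 10 CPM. Members lay at 0.06 (mt-Nd4) to 0.24 (mt-Nd3) and the median other gene at 0.76. Each member is part of that mean, so its distance is small in part by construction and is not a measure set against other genes. The nearest others were Ppp1r10 at 0.31, Wdtc1 at 0.32, Lars2 at 0.33, Hsd17b7 at 0.33, Hexim1 at 0.35, Chchd10 at 0.35, Etfdh at 0.35, Ceacam1 at 0.35, Serpinf1 at 0.35 and Slc25a15 at 0.36. Of these Lars2 is the mitochondrial leucyl-tRNA synthetase, Etfdh passes electrons from fatty acid oxidation to the chain, and Chchd10 and Slc25a15 are mitochondrial proteins. The share of genes for mitochondrial proteins among all those compared was not counted. Chchd10 was at 1733 CPM on average at 0 h and 678, 727 and 691 at 24, 36 and 48 h. Lars2 was at 170 CPM at 0 h and 37.4, 49.7 and 42.8 after injury.

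Within a section the members varied together over spots at 0 h more than after injury. The median Spearman correlation between pairs of members, each as a share of the spot's UMIs, was 0.95 to 0.97 at 0 h. The median was 0.51 and 0.58 at 24 h, 0.47 and 0.94 at 36 h, and 0.79 to 0.90 at 48 h. The points share a library, and a spot with fewer member UMIs gives a noisier share, so these values are descriptions.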

How the data were processed

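Per the labels and the study's methods, the authors sectioned snap-frozen livers onto Visium slides and processed reads with Space Ranger 1.0.0 against mm10, and used Seurat 4.1.1 for later steps that are not in the files. The deposited values were raw UMI counts per gene and spot, 4992 spot barcodes per section, with no spot filter or normalisation. How reads of overlapping genes were counted is not given in the sources used here. Counts of spots under tissue were summed per section. Genes passing filterByExpr were tested with edgeR 4.0.16 (R 4.3.3; TMM, robust quasi-likelihood, two-sided, Benjamini-Hochberg over all genes tested), all 11 sections in 1 fit, or class sums with the section as a block. A standard error was the log2 fold change over the square root of F. Class scores were the mean natural log of 1 plus UMIs scaled to 10000, on spots thinned to 2000 nuclear-encoded UMIs. Classes under 20 spots were left out, but distances from hepatocyte-low spots were taken in all sections.

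Members and gene lists were chosen with earlier results of these data known. The central and portal modules are the study's lists, drawn from spatial trajectories, and may not be independent of these sections. Spots the authors removed by hand were kept. Named beyond the members were the remaining mitochondrial messenger RNAs, Polrmt, Tfam and Ppargc1a, examples from the 3 called genes of largest change per list with at least 10 CPM, and the 10 genes nearest in pattern. In counts simulated from these sections with 200 genes changed 2-fold, the time fit over 14596 genes recovered 153 for 48 h against 0 h with 1.92% of calls false, and the class fit over 13447 genes recovered 163 at 0 h with 2.98% false. The simulated sections held no other changes between times or classes, with up and down drawn alike. These rates therefore do not carry over to data with far more genes called, or called mostly upward under plain totals. DESeq2 1.42.0, other scalings, filters, spot depths and left-out sections were alternatives. Intervals and limits cover counting or section error only. Sequences and coordinates came from GENCODE M21 on GRCm38, the files' build. Images and scale factors were not used here.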

Additional observations from a re-analysis of the deposited data

Results flagged for a closer look

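Central-against-portal differences that changed from those at 0 h were singled out, because the change itself passed the test (edgeR, adjusted over 13798 genes). At 48 h the log2 change was -0.19 for mt-Nd1, -0.31 for mt-Nd2, -0.36 for mt-Nd3, -0.38 for mt-Nd4, -0.30 for mt-Nd5, -0.42 for mt-Cytb, -0.32 for mt-Co1, -0.30 for mt-Co2, -0.44 for mt-Co3 and -0.32 for mt-Atp6. At 24 h it was 0.40 for mt-Nd5, on 2 sections. The low-count transcripts outside the set, mt-Atp8, mt-Nd4l and mt-Nd6, were higher in the central class in both of those sections too. Central and portal scores no longer opposed each other in the 48 h sections, and the part of this in the changes was not tested. Among 12 sets of values at 48 h, the members' CPM, their share and spot depth, no section stood apart from the other 3.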

How the results depend on the processing

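Members called lower against 0 h at 48 h numbered 10 whichever section was left out and 9 or 10 under the other alternatives run. At 24 h the count was 5 to 10 with a section left out, and 2 in spots of 30000 to 40000 UMIs. At 36 h it was 2 to 10 with a section left out, 2 with plain totals, 1 with only the groups compared, 6 with no filter on low counts and 0 at 30000 to 40000 UMIs. Those depth ranges were chosen after seeing the data. They put the 0 h share at 7.81% (15000 to 25000 UMIs) and 3.52% (30000 to 40000). With a section left out, 0 to 7 members were called for 36 h against 24 h and 0 to 3 for 48 h against 36 h. The section letters are shared by the injured times only. Their deviations correlated at -0.26 to 0.46, so the letter was not taken as a pairing, and with the replicate block 0 members were called in each comparison of injured times. For central against portal classes at 0 h the count was 0 with narrower outer classes, 2 with plain totals, 0 with unthinned scores and 1 to 7 with a section left out. It was 1 with narrower outer classes, 1 with plain totals and 1 to 6 at 24 h, and 3, 1 and 2 to 9 at 36 h. For the change from 0 h it was 4 with plain totals and 0 to 1 with a section left out at 24 h. At 36 h it was 6 unthinned, 1 with the study's spot filter and 0 to 3. At 48 h it was 6 with narrower outer classes and 3 with plain totals, where mt-Nd1 reversed to 0.024. Plain totals left 2 and 0 members called in hepatocyte-low spots at 24 h and 36 h. The causes were not tested.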
